A study of Homo sapiens with 5 samples.

Results

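Genes that differ between the late interferon-gamma (IFN-gamma) arrays of T84 cells and 2 other arrays with high CXCL10, IRF1 and TAP1 are described here. T84 is a human colon carcinoma line, a single tumour's cells, grown as a stand-in for the crypt epithelium that secretes chloride. The 2 arrays titled 18 h (IFN-gamma at 1000 U/ml for 18 h, replicates 1 and 2) were set against 2 others: the array titled untreated, which its label describes as a pooled control, and replicate 2 of the 6 h treatment (IFN-gamma at 1000 U/ml for 6 h). These are 4 of the 5 Affymetrix arrays of the study. They were chosen by measured values: CXCL10 and IRF1 exceeded an intensity of 500 on each of them and TAP1 was high as well. The remaining array, 6 h replicate 1, was left out because these genes were low on it. The label untreated is opposed by the interferon genes of that array, so it is called the array labelled untreated throughout, and "the other 2 arrays" below means the array labelled untreated and 6 h replicate 2, in that order. Since 1 array was left out for its measured values, every comparison holds for this choice of arrays and is no contrast of treated with untreated cells. In such bulk RNA, fewer cells of a type and less RNA per cell cannot be told apart.

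IFN-gamma is a cytokine of T cells and natural killer cells. It binds a receptor of the IFNGR1 and IFNGR2 chains, and JAK1 and JAK2 kinases then start the signal that induces a first set of genes, IRF1 among them. IRF1 and related factors act on a further wave of genes through ISRE elements, so that the response builds up over hours. In intestinal epithelium it is known for antigen presentation, chemokine secretion, tryptophan breakdown, and for loss of barrier and transport functions.

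The genes that chose the arrays are given first, as a description. The chemokine CXCL10 had intensities of 1260 and 1399 at 18 h, against 1317 on the array labelled untreated and 1149 on 6 h replicate 2. IRF1 had 933 and 921 at 18 h, against 1086 and 907 on the other 2 arrays, and the peptide transporter TAP1 1346 and 2038, against 1772 and 1208. On the array left out these 3 genes had 41, 14 and 61. The lowest value inside the threshold of 500 was 907 (IRF1 on 6 h replicate 2), and the highest of CXCL10 and IRF1 on the array left out was 41. The authors' deposited list of induced genes has a control column of its own, with 17 for CXCL10, 43 for IRF1 and 136 for TAP1, far below the array labelled untreated. Its treated columns equalled the treated arrays in all 97 probe sets compared, but its control column equalled the array labelled untreated in only 3. Whether a label or a column was exchanged was not tested.

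Each array gave 7018 probe sets, of which 4910 exceeded an intensity of 20, the floor to which lower values were set, on at least 1 of the 4 arrays and were tested. Medians ran from 34 to 39. The spread of intensities (SD over probe sets) was 258 and 350 at 18 h, against 308 on the array labelled untreated and 245 on 6 h replicate 2, so each side held 1 array of wider and 1 of narrower range. Some very bright genes followed that range: the glycolytic enzyme GAPDH had 1276 and 2238 at 18 h, against 1743 and 1228 on the other 2 arrays. Others did not, such as the proteasome subunit PSMB9, at 1848 and 2443 against 981 and 1208. On the log2 scale, differences between the 18 h arrays had an SD of 0.715 and those between the other 2 arrays 0.696, while across the groups the 4 pairs of arrays had 0.625 to 0.854. Arrays of the 2 groups were thus about as far apart as arrays within a group. The 14 intestinal epithelium markers were all above the floor, with a summed intensity of 10921 and 14813 at 18 h, against 13917 and 10317 on the other 2 arrays, which followed the range of the arrays.

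After Benjamini-Hochberg adjustment limma called 0 of 4910 probe sets (0.00%), and the smallest adjusted p was 0.488. Unadjusted, 430 (8.76%) had a limma p under 0.05, of which 163 (3.32%) were higher at 18 h and 267 (5.44%) lower. The titles call the replicates biological without naming separate cultures, and the other 2 arrays carry different labels, so the p-values measure only the spread between these arrays. None of the differences below is therefore shown to exceed the spread between arrays after correction, and 2 arrays against 2 allow no exact two-sided permutation p under 0.333. As a description, 639 probe sets (13.0%) had both 18 h arrays above the other 2 arrays and 1084 (22.1%) had both below. Centring each array on its median changed that split, to 1052 above and 921 below. At least 2-fold on both 18 h arrays, 39 (0.794%) were higher and 40 (0.815%) lower. Against the array labelled untreated alone 142 were at least 2-fold higher and 137 lower, and against 6 h replicate 2 alone 125 and 205.

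**Figure D1:**
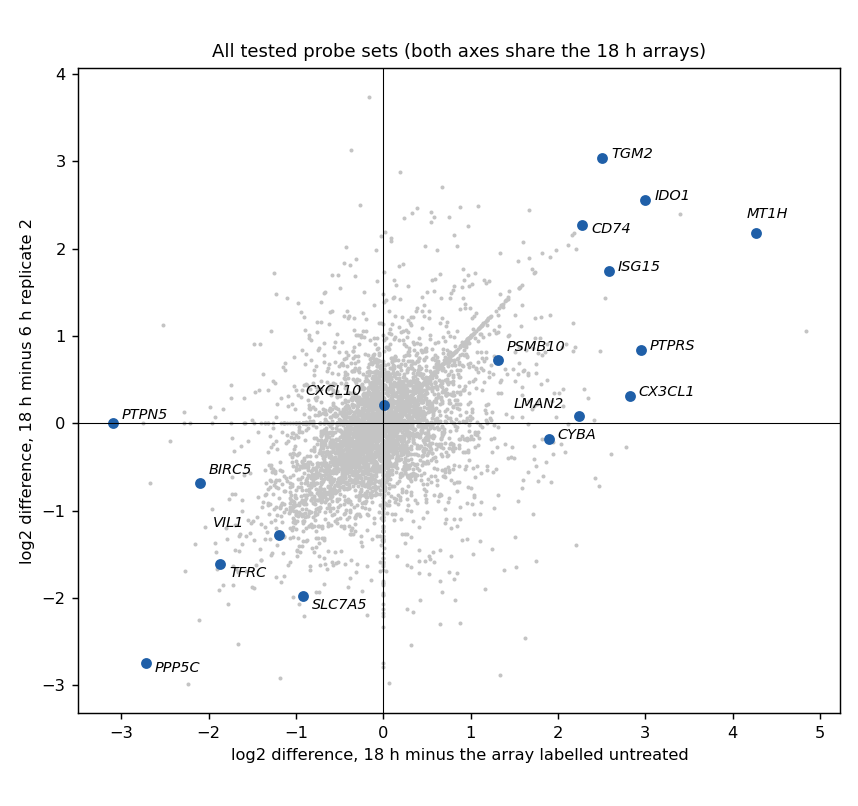
Each grey point is 1 of the 4910 tested probe sets, placed by the log2 difference of the 18 h mean from the array labelled untreated (x axis) and from 6 h replicate 2 (y axis). Both axes share the 18 h arrays, so the tilt of the cloud carries no information. IDO1, TGM2, CD74 and ISG15 lie high on both axes, VIL1 and TFRC low on both, and CYBA, LMAN2 and PTPN5 near 0 on the y axis.

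The followed gene with the largest difference was IDO1, the enzyme that starts tryptophan breakdown in response to IFN-gamma. It had 903 and 906 at 18 h, against 113 on the array labelled untreated and 153 on 6 h replicate 2, a log2 difference of 2.78 (SE 0.27), 6.88-fold, with the smallest unadjusted limma p of all probe sets (0.000292, adjusted p = 0.488). The 18 h values lay far above the other 2 arrays and nearly coincided. The array left out had 88, and the control column of the authors' deposited list 15. The ubiquitin-like modifier ISG15, which is conjugated to proteins in antiviral defence, had 1025 and 1089 at 18 h, against 176 and 315, a log2 difference of 2.17 (SE 0.36), 4.49-fold (limma adjusted p = 0.498). On both genes the other 2 arrays were near the array left out (265 for ISG15). On CXCL10, IRF1 and TAP1 they were near the 18 h arrays, but those genes chose the arrays and had to be high on them. The contrast with those genes is therefore only a description. Of the other tryptophan genes, the tryptophanyl-tRNA synthetase WARS1 had 1447 and 2621 at 18 h, against 1847 and 1335, with overlapping groups. Of the 5 measured genes of that list only IDO1 was free of overlap, where 13.0% of all probe sets were higher and 22.1% lower.

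**Figure D2:**
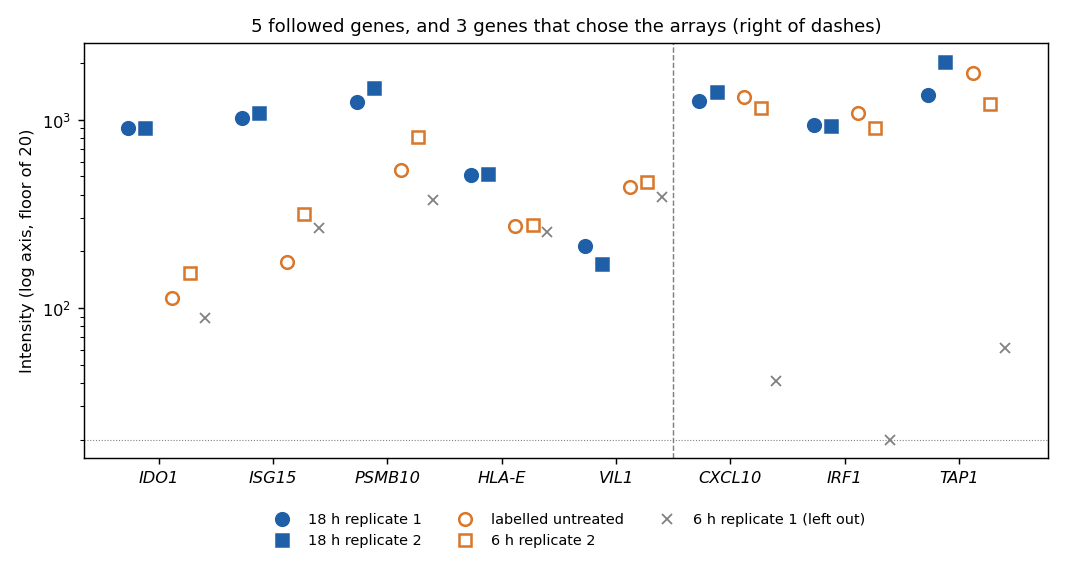
Intensity (log axis, values under 20 drawn at 20) of 5 followed genes and of the 3 genes that chose the arrays, for each array. IDO1, ISG15, PSMB10 and HLA-E have both 18 h arrays (filled) above the other 2 arrays (open) and VIL1 both below, while CXCL10, IRF1 and TAP1 overlap and are low on the left-out array (cross).

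The promoter of ISG15 is shown because it holds letters of the ISRE, whose part in the differences of these arrays was not tested. This promoter comes from RefSeq (GRCh38.p14), covers 250 bases before to 50 after the annotated start, and lies at chr1:1013247-1013546 on the + strand. Capitals mark every match to an ISRE core on either strand, written as GAAA, any 2 bases and GAAA again. The 2 matches in ISG15 overlap each other and start at -113 and -107.
ISG15: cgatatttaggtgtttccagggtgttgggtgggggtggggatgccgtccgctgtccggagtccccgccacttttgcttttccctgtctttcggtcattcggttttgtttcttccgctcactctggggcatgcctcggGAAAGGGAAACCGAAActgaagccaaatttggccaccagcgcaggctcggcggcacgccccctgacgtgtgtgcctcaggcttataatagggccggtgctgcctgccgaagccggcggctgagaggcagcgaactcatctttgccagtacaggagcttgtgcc
The next 2 promoters belong to genes of the immunoproteasome, PSMB10 (chr16:67936801-67937100, - strand) and PSME1 (chr14:24135944-24136243, + strand), and have 1 match each, starting at -21 and at 6.
PSMB10: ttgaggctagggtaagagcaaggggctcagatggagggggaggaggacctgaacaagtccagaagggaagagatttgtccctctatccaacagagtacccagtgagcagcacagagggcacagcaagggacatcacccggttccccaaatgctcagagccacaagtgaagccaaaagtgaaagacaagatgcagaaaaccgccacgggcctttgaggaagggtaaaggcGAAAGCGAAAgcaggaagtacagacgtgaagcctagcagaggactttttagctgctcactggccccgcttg
PSME1: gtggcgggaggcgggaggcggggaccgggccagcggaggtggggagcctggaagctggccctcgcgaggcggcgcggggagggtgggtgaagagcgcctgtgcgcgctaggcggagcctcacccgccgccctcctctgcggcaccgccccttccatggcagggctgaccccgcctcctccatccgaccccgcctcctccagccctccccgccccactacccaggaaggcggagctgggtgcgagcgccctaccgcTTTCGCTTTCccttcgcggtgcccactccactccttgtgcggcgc
The last, IFIT1 (chr10:89392373-89392672, + strand), is an antiviral gene with 2 matches, starting at -116 and -103, whose level was alike on all 4 arrays, as given below.
IFIT1: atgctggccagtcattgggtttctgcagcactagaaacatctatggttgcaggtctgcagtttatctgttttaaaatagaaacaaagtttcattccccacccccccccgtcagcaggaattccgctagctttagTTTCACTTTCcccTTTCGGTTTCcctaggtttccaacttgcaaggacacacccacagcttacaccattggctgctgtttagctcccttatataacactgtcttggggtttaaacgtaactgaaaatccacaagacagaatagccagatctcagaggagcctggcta
These letters occur in 3.57% of all 35116 promoters of the table. Of the 26 measured antiviral genes 20 had a promoter there. The letters were in 5 of 8 promoters of those higher at 18 h without overlap and in 10 of 12 of the rest. The letters TTCNNNGAA of the GAS, another element of interferon-induced promoters, found in 7.66% of all promoters, were in 4 of the 8 and in 1 of the 12. Among the 20 genes with the highest differences 15 had a promoter, with ISRE letters in 1 (ISG15) and GAS letters in 2, and among the 20 with the lowest, 0 and 1 of 15. A match is only a run of letters in this window.

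Genes of the immunoproteasome, the form of the proteasome that IFN-gamma installs for antigen processing, were higher at 18 h. All 4 measured members lay above the other 2 arrays on both 18 h arrays, as did 13.0% of all probe sets. Their median log2 difference was 0.81, against -0.07 over all 3703 named genes. The catalytic subunit PSMB10 had 1239 and 1470 at 18 h, against 543 and 813, a log2 difference of 1.02 (SE 0.31). PSMB9, another catalytic subunit, had 1848 and 2443, against 981 and 1208, and PSMB8 had 1110 and 1129, against 720 and 711. The PA28 activator subunit PSME1 differed least, at 1302 and 1471, against 986 and 1015. On quantile normalized values 3 of the 4 were free of overlap. The 22 measured genes of the constitutive proteasome had a median of 0.04, with 4 higher and 2 lower without overlap (background 13.0% and 22.1%). After median centring 8 were higher and 1 lower. PSMB5, the constitutive catalytic subunit that PSMB8 replaces, had 532 and 624 at 18 h, against 664 and 836.

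Among 8 measured genes of MHC class I and peptide loading, 2 were higher without overlap and none lower, beside 13.0% and 22.1% of all probe sets. The median of 0.27 rested on 18 h replicate 2: it was -0.06 without that array and 0.56 without 18 h replicate 1. HLA-E, the ligand of the NKG2A receptor of natural killer cells, had 509 and 515 at 18 h, against 271 and 277, a log2 difference of 0.90 (SE 0.22). HLA-F, another non-classical molecule, had 846 and 1011, against 530 and 465. Class I sequences resemble each other, so that cross-hybridisation between them was not tested. Beta-2-microglobulin (B2M), their shared light chain, overlapped, at 1609 and 2851, against 2155 and 1561, and so did TAP1.

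MHC class II presents peptides from outside the cell and is induced late, through the coactivator CIITA. Of 16 measured genes of this group, 8 were higher without overlap and 2 lower (background 13.0% and 22.1%), with a median of 0.22 that ran from 0.16 without 18 h replicate 2 to 0.44 without 18 h replicate 1. Of the 8, 2 (CD74 and HLA-DRB1) passed the floor through the 18 h arrays alone and could be counted only as higher. The invariant chain CD74 had 116 and 81 at 18 h, against -35 and -20, below the floor on both, so it was at least 4.85-fold higher. HLA-DRB1 was also at or below the floor on the other 2 arrays, at 76 and 82 against -5 and -58, at least 3.95-fold. The array left out had 68 for HLA-DRB1, near the 18 h arrays, and -23 for CD74. The cysteine protease CTSS, which trims the invariant chain, had 216 and 115, against 58 and 55, and IFI30, a thiol reductase of the lysosome, 929 and 1184, against 560 and 549. HLA-DRA had 179 and 179, against 140 and 100, and HLA-DMB, a peptide exchange factor, 152 and 186, against 97 and 131. CIITA itself was near the floor, at 45 and 63 against 38 and 60, and its 2 probe sets differed in opposite directions. The 2 lower genes were the protease CTSL, at 45 and 70 against 93 and 97, and HLA-DQA1, at 169 and 140 against 187 and 174.

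The antiviral genes split. Of 26 measured, 13 were higher at 18 h without overlap and 1 lower, where the shares over all probe sets were 13.0% and 22.1%, with a median of 0.28. Next to ISG15 the largest differences were those of ISG20, a 3′ exonuclease, at 1436 and 1887 against 765 and 809, TRIM22, a ubiquitin ligase, at 498 and 475 against 238 and 229, and IFI35, at 1006 and 1121 against 433 and 656. A dimmer probe set of IFI35 overlapped, at 37 and 52 against 41 and 38. The tethering protein BST2 had 792 and 948, against 463 and 547, and 724 on the array left out. The oligoadenylate synthetases, which activate RNase L, were higher too: OAS2 had 658 and 705, against 379 and 447, and OASL, a family member without synthetase activity, 520 and 477, against 284 and 300. The other 12 overlapped, some with close values on all 4 arrays. The IFIT proteins bind viral RNA, and IFIT1 had 246 and 229 at 18 h, against 239 and 214, and IFIT3 677 and 816, against 614 and 805. The GTPase MX1 had 873 and 669, against 820 and 746, and the kinase EIF2AK2 (PKR) 437 and 405, against 444 and 330. IFIT2 was the lower one, at 195 and 175 against 234 and 214. On the array left out, IFIT1, IFIT3 and MX1 had 138, 81 and 149.

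**Figure D3:**
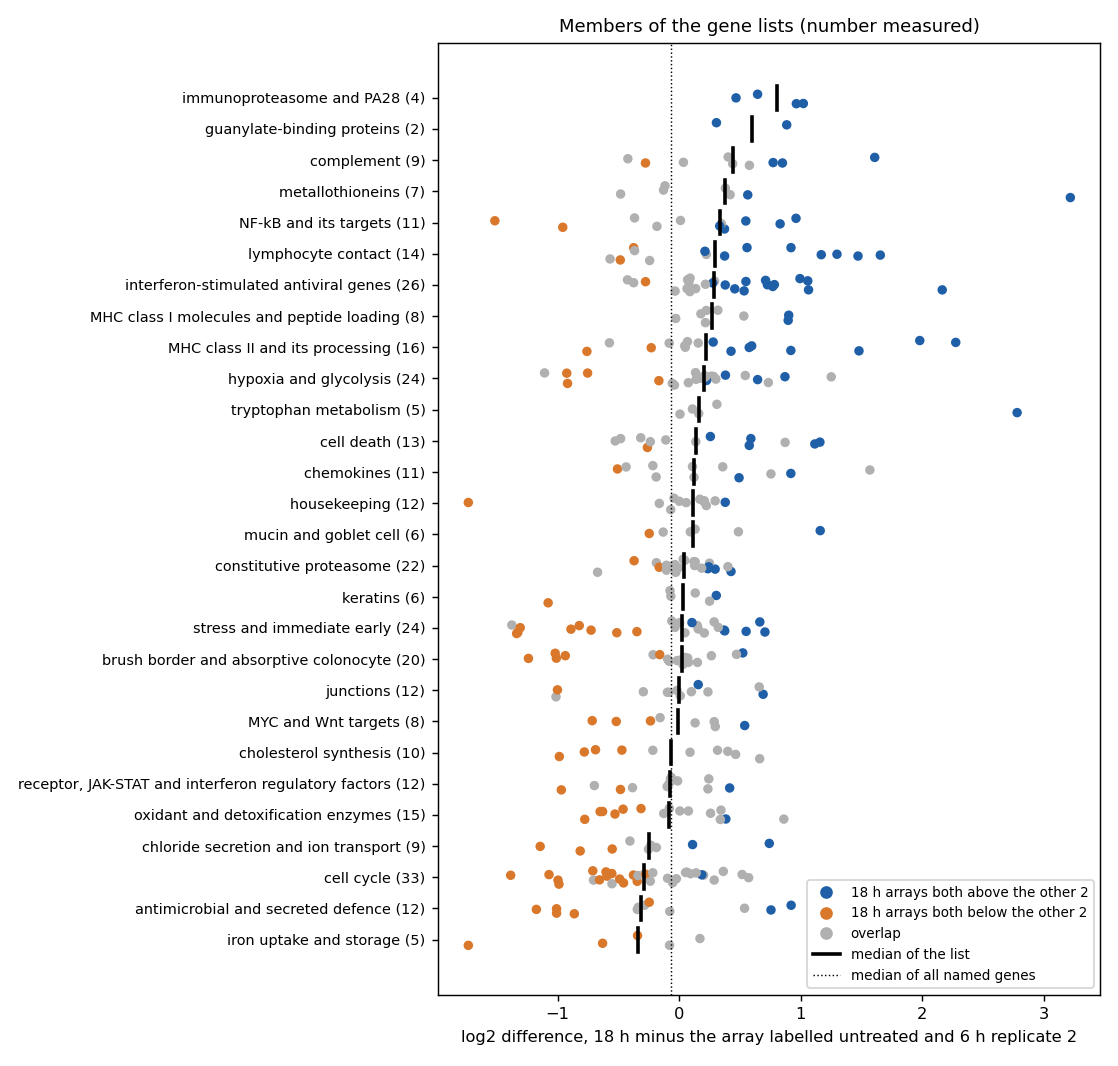
Each point is a measured gene of a list, placed by its log2 difference (18 h minus the other 2 arrays), with lists ordered by their median (black bar). The 4 immunoproteasome genes are all free of overlap to the right, the antiviral genes have 13 of 26 there, and the cell cycle genes have 14 of 33 free of overlap to the left. Over all probe sets 13.0% were free of overlap to the right and 22.1% to the left.

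The signalling genes themselves mostly overlapped. Of 12 measured genes of the receptor, the JAK-STAT pathway and the interferon regulatory factors, 1 was higher without overlap and 2 lower, no more than the background shares of 13.0% and 22.1%, with a median of -0.08. The values of single members that follow are a description. The receptor chain IFNGR1 had 113 and 69 at 18 h, against 177 and 169, a log2 difference of -0.97 (SE 0.33). STAT3 had 480 and 515, against 666 and 725, whereas IRF7, the regulator of type I interferon genes, had 384 and 451, against 305 and 319. IRF9, the DNA-binding part of the ISGF3 complex, had 633 and 686, against 625 and 707. The guanylate-binding proteins defend against intracellular microbes, and both measured members were higher: GBP2 had 317 and 322, against 168 and 178, and GBP1 452 and 405, against 325 and 368. Of 11 chemokines, 2 were higher and 1 lower without overlap, close to or below the background of 13.0% and 22.1%, and 1 of the 2, CCL5 (27 and 53 at 18 h, against 5 and 2), passed the floor through the 18 h arrays alone. CXCL9, which like CXCL10 attracts T cells through CXCR3, had 387 and 376, against 271 and 271, while CXCL11 overlapped, at 775 and 1007 against 837 and 567.

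In other defence groups, single genes stood out. The death ligand TNFSF10 (TRAIL) had 994 and 956 at 18 h, against 420 and 481, a log2 difference of 1.12 (SE 0.23), and the survival protein MCL1 443 and 353, against 281 and 250. Of 13 cell death genes 5 were higher and 1 lower without overlap (background 13.0% and 22.1%). Their median of 0.14 was -0.06 without the array labelled untreated and 0.26 without 6 h replicate 2. The secreted phospholipase PLA2G2A, an antibacterial enzyme, had 843 and 865, against 487 and 525, in a group of 12 antimicrobial genes with 2 higher and 5 lower (background 13.0% and 22.1%) and a median of -0.31, which was -0.45 without the array labelled untreated and -0.22 without 6 h replicate 2. The elastase inhibitor PI3 was among the lower ones, at 86 and 87 against 141 and 215. Of 9 complement genes 3 were higher and 1 lower, beside 13.0% and 22.1% of all probe sets, and 6 and 0 after median centring. Their median of 0.44 was 0.27 without 18 h replicate 2 and 0.72 without 18 h replicate 1. The C1 inhibitor SERPING1 had 211 and 197, against 112 and 127. Of 11 genes of NF-kB and its targets 5 were higher and 2 lower (background 13.0% and 22.1%), 1 of them in each direction through arrays of 1 group alone. Their median of 0.33 was 0.02 without 6 h replicate 2 and 0.08 with a floor of 50. The A20-binding inhibitor TNIP1 had 428 and 340, against 208 and 221, while NFKB1 had 151 and 62, against 185 and 191.

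Genes for contact with lymphocytes were higher in 8 of 14 and lower in 2 without overlap, where 13.0% of all probe sets were higher and 22.1% lower. Of these, 1 higher and both lower genes passed the floor through 1 group alone, and the median of 0.30 was 0.12 without 18 h replicate 1. TNFRSF14 (HVEM), the ligand of BTLA, had 200 and 280 at 18 h, against 67 and 138, and 256 on the array left out. The galectin LGALS9 had 518 and 858, against 404 and 307, but its other probe set overlapped, at 487 and 324 against 256 and 415. BTN3A2, a butyrophilin of the family that gamma-delta T cells recognise, had 92 and 136, against 18 and 63, and the ephrin receptor EPHA2 97 and 120, against 36 and 42.

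Several genes of the absorptive and secretory epithelium were lower at 18 h. Villin (VIL1), which bundles actin in microvilli, had 214 and 172 at 18 h, against 441 on the array labelled untreated and 466 on 6 h replicate 2, a log2 difference of -1.24 (SE 0.25, limma adjusted p = 0.498). The other 2 arrays exceeded 18 h by 2.36-fold, and the array left out, at 387, was near them. The brush border protease MEP1A had 110 and 57, against 150 and 172, and the chloride-bicarbonate exchanger SLC26A3 114 and 93, against 180 and 216. Over the whole list the counts were otherwise: of 20 measured brush border and absorptive genes 1 was higher and 5 lower without overlap, near the background of 13.0% and 22.1%, with a median of 0.02 that was -0.14 without 18 h replicate 2. The higher one was the bundling protein PLS1, at 1073 and 723 against 663 and 566.

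Of 9 measured genes of chloride secretion and ion transport, 2 were higher and 3 lower (background 13.0% and 22.1%). Their median of -0.25 was -0.05 without the array labelled untreated, with 4 higher and 4 lower. The guanylin receptor GUCY2C had 204 and 180 at 18 h, against 340 and 334, and the aquaporin AQP3 230 and 303, against 321 and 466. The basolateral potassium channel KCNQ1 had 88 and 52, against 151 and 148, but its other probe set, near the floor, differed the opposite way. The apical chloride channel CFTR had 105 and 230, against 97 and 89. Among 6 mucin and goblet cell genes MUC1 was higher, at 161 and 162 against 66 and 79, although a dimmer probe set of it differed the opposite way, and the trefoil peptide TFF1 lower, at 556 and 579 against 701 and 646. Of 12 junction genes 2 were higher and 1 lower, and of 6 keratins 1 was higher and 1 lower (background 13.0% and 22.1%). The junction median of -0.00 was -0.30 without 18 h replicate 1 and 0.21 without 18 h replicate 2. The keratin median of 0.03 was -0.15 without 18 h replicate 2 and 0.13 without the array labelled untreated. E-cadherin (CDH1) had 665 and 582, against 563 and 553.

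The genes with the lowest differences among brighter genes included the following, named from the top of that ranking. The transferrin receptor TFRC, which brings iron into the cell, had 343 and 252 at 18 h, against 1072 on the array labelled untreated and 894 on 6 h replicate 2, a log2 difference of -1.74 (SE 0.28, limma adjusted p = 0.495). The array left out had 477. The amino acid transporter SLC7A5 had 83 and 108, against 179 and 372, and asparagine synthetase (ASNS) 77 and 54, against 165 and 161. GART, an enzyme of purine synthesis, had 50 and 30, against 110 and 142. The nucleolar protein NOLC1 had 78 and 41, against 149 and 167, the tRNA methyltransferase METTL1 50 and 50, against 117 and 169, and IFRD2, which binds inactive ribosomes, 79 and 110, against 308 and 289. On the array left out, SLC7A5, GART, NOLC1 and IFRD2 were within or below the range of the 18 h arrays, at 25, 28, 48 and 40. No list of biosynthesis genes was set up, so no count over such a group is given.

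Of 33 measured cell cycle genes, 14 were lower at 18 h without overlap and 1 higher, with a median of -0.29, where 22.1% of all probe sets were lower and 13.0% higher. After median centring 14 were lower and 3 higher. BIRC5 (survivin), an apoptosis inhibitor and mitotic protein, had 88 and 96 at 18 h, against 393 on the array labelled untreated and 147 on 6 h replicate 2, with the largest gap to the first. The kinase CDK4 had 320 and 258, against 550 and 598, a log2 difference of -0.997 (SE 0.248). Of 6 replicative helicase subunits, singled out after their values were seen, 4 were lower without overlap: MCM2 had 495 and 245, against 681 and 702, MCM3 183 and 196, against 286 and 289, MCM6 257 and 257, against 394 and 382, and MCM7 429 and 383, against 483 and 573. MCM4 and MCM5 overlapped. Thymidylate synthase (TYMS) had 217 and 166, against 264 and 269, and the sliding clamp PCNA 756 and 705, against 869 and 898. The phosphatase CDC25B was the higher one, at 898 and 877 against 748 and 813, and 18 genes of the list overlapped. The array left out was lower than the 18 h arrays for MCM2, MCM3, MCM6 and TYMS (156, 69, 176 and 70).

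**Figure D4:**
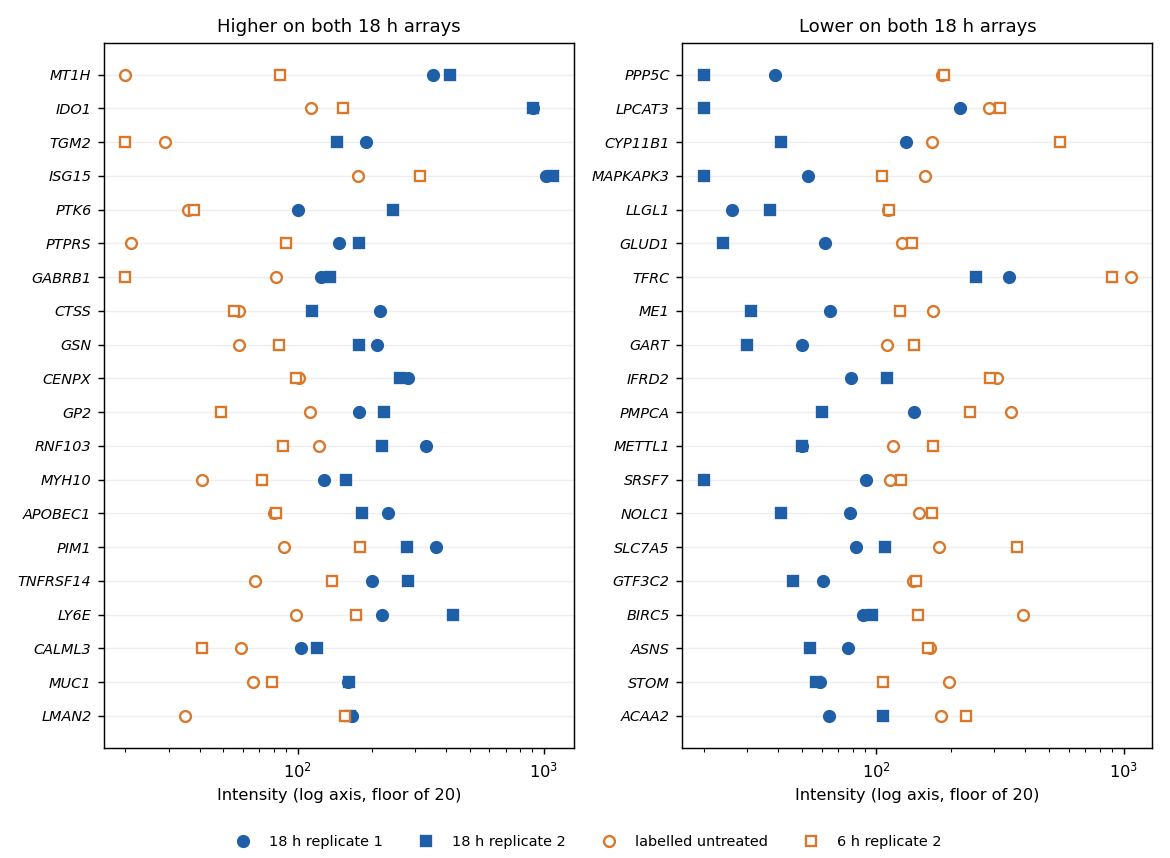
Intensities (log axis, values under 20 drawn at 20) of the 20 genes with the highest and the 20 with the lowest log2 difference among those free of overlap and at 100 or more on both arrays of the higher group. IDO1, MUC1, METTL1 and CENPX have close 18 h values, while LPCAT3, SRSF7 and PTK6 have 18 h values far apart.

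The 20 highest differences among brighter genes also held genes outside the interferon lists. Tissue transglutaminase (TGM2), which crosslinks proteins, had 189 and 144 at 18 h, against 29 and -11, a log2 difference of 2.78 (SE 0.32). The metallothionein MT1H had 355 and 416, against -116 and 85, a spread between the other 2 arrays that gave an SE of 0.74 for a difference of 3.22. The negative values of TGM2 and MT1H were set to the floor of 20, so both differences depend on that floor. Metallothioneins share most of their sequence. Of 7 measured, 2 were higher and none lower without overlap (background 13.0% and 22.1%), with MT2A at 1958 and 2841 against 1611 and 1578. The median of the 7 was 0.38, but -0.21 without 18 h replicate 2. The kinase PIM1 was higher on both of its probe sets, at 364 and 278 against 88 and 180 on the brighter. CENPX, a kinetochore protein, had 281 and 261, against 101 and 99. The actin-severing protein GSN had 211 and 178, against 58 and 84 and the RNA-editing enzyme APOBEC1 233 and 182, against 80 and 82. The intestinal tyrosine kinase PTK6 had 100 and 244, against 36 and 38. GSN and APOBEC1 were high on the array left out as well (202 and 306).

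The 20 lowest also held PPP5C, a serine-threonine phosphatase, at 39 and -40 against 184 and 187, and LLGL1, a polarity protein, at 26 and 37 against 111 and 112. In both the other 2 arrays nearly coincided. GLUD1, which converts glutamate, had 62 and 24, against 127 and 139, malic enzyme (ME1) 65 and 31, against 170 and 125, and the mitochondrial peptidase subunit PMPCA 142 and 60, against 351 and 238. In LPCAT3, at 218 and 1 against 286 and 315 (its other probe set overlapped), and SRSF7, at 91 and 20 against 113 and 126, the 18 h arrays were farther from each other than the nearer of them was from the other 2 arrays.

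Oxidant and stress genes differed one by one. Of 15 oxidant and detoxification genes 1 was higher and 6 lower (background 13.0% and 22.1%), 1 and 3 after median centring, and 2 and 4 on quantile normalized values. Their median of -0.08 was -0.40 without 18 h replicate 1 and 0.20 without 6 h replicate 2. NQO1, a quinone reductase, had 310 and 216 at 18 h, against 398 and 494, thioredoxin reductase (TXNRD1) 306 and 289, against 406 and 453, and catalase (CAT) 142 and 113, against 183 and 216. Thioredoxin (TXN) was higher, at 868 and 674 against 581 and 591. Of 24 stress and immediate early genes 6 were higher and 8 lower (background 13.0% and 22.1%), with a median of 0.03 that was -0.07 without 18 h replicate 1. The heat shock cochaperone DNAJB1 had 388 and 272, against 583 and 566, JUN 41 and 26, against 76 and 86, and JUNB 702 and 626, against 525 and 501. Of 10 cholesterol synthesis genes 4 were lower and none higher (background 22.1% and 13.0%), but 3 lower and 2 higher after median centring. Their median of -0.06 was 0.12 without 6 h replicate 2. FDPS, which makes farnesyl diphosphate, had 307 and 191, against 464 and 496, and squalene epoxidase (SQLE) 212 and 131, against 275 and 298. Of 24 genes of hypoxia and glycolysis 4 were higher and 4 lower, near the background of 13.0% and 22.1%. Their median of 0.21 turned to -0.12 without 18 h replicate 2 and -0.04 without 6 h replicate 2. Aldolase C (ALDOC) had 264 and 191, against 426 and 423, and the peptide hormone ADM 1056 and 1076, against 831 and 806. Of 8 MYC and Wnt targets 1 was higher and 3 lower (background 13.0% and 22.1%), with a median of -0.01. Of 5 iron genes 3 were lower, where 22.1% of all probe sets were, but only 1 after median centring or on quantile normalized values. The 12 housekeeping genes had a median of 0.11 that was -0.17 without 18 h replicate 2, with 1 higher (SDHA, at 422 and 363 against 310 and 292) and 1 lower (TFRC).

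For some genes the array labelled untreated stood alone. CYBA, a membrane subunit of NADPH oxidases, had 518 and 532 at 18 h and 592 on 6 h replicate 2, against 141 on the array labelled untreated. LMAN2, a cargo lectin, had 167 and 163 at 18 h and 156 on 6 h replicate 2, against 35, and the membrane-bound chemokine CX3CL1 had 227 and 117 at 18 h and 131 on 6 h replicate 2, against 23. The phosphatase PTPN5 was below the floor on the 18 h arrays (-86 and -80) and 6 h replicate 2 (-69), against 171, and EGR4 likewise, at 19, -15 and -82, against 135. Beta-catenin (CTNNB1) had 532 and 422 at 18 h and 410 on 6 h replicate 2, against 210. For these genes the difference rested on 1 unreplicated array, whereas HLA-E, TRIM22, CDK4, VIL1 and TFRC had the other 2 arrays close to each other. For IDO1 the other 2 arrays had 113 and 153, both far below the 18 h arrays.

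Markers of other cell types were mostly near or below the floor, with CD3E and MPO above 100 on each of the 4 arrays. A dimmer probe set of MPO was near or below the floor, at -55 and 22 at 18 h, against -49 and -17. Of the 11 T and NK cell markers 7 exceeded the floor on at least 1 array. None of the 7 was free of overlap, where 13.0% of all probe sets were higher and 22.1% lower. Their summed intensity was 379 and 557 at 18 h, against 615 on the array labelled untreated and 539 on 6 h replicate 2. CD3E made up a large part of that sum, at 199 and 276 against 345 and 251, while CD3D had 22 and 11, against 15 and 34. In all, 2 T and NK cell markers, CD3E among them, exceeded 100 on at least 2 arrays. The other 4 of the 11 markers were never above the floor. The 4 B cell markers summed to 102 and 61, against 0 and 58, and the 7 measured fibroblast and endothelial markers to 306 and 479, against 235 and 449. Of 6 macrophage and granulocyte markers on the array only LYZ (54 and 65 at 18 h, against 135 and 86) and MPO (123 and 137, against 147 and 144) were above the floor, and the list summed to 177 and 202 at 18 h, against 282 and 230. CD74 and HLA-DRB1 are also expressed by such cells. The part of other cells in the differences was not tested.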

How the data were processed

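RNA of T84 cells was hybridised to Affymetrix arrays, 1 per sample. The deposited table holds 1 intensity per probe set and array, some of them negative. How the authors computed the intensities, and any scaling between arrays, was not found in the labels, and the number of arrays limits the precision. Values under 20 were set to 20 and the deposited intensities were then taken to log2, with no further normalization. Probe sets above 20 on at least 1 of the 4 arrays (4910 of 7018) were tested with limma 3.58.1 (lmFit, eBayes, R 4.3.3), 2 arrays at 18 h minus the array labelled untreated and 6 h replicate 2, with Benjamini-Hochberg adjustment over all of them. A gene was counted as free of overlap where both 18 h arrays lay above, or both below, the other 2 arrays. Symbols came from the platform annotation: 5649 probe sets had 1 symbol, 321 several and 1048 none, and none was named from several. A gene with several probe sets is represented by its brightest. The limma script was tested on simulated data.

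The text names the 8 genes followed or used to choose the arrays, up to 20 genes in each direction by difference among those free of overlap and at 100 or more on both arrays of the higher group, up to 4 members of each gene list by the size of the difference, and genes an earlier look at these arrays had named (TFRC, BIRC5, PTPN5, EGR4 and CTNNB1 among them). BST2, BTN3A2, CCL5, CD3D, CDC25B, CIITA, CTSL, EIF2AK2, EPHA2, GAPDH, HLA-DQA1, HLA-DRB1, IFIT1, IFIT2, IFIT3, IRF9, JUN, JUNB, LYZ, MCM3, MCM5, MCM6, MCM7, MX1, OAS2, OASL, PCNA, TXN, TXNRD1 and TYMS lie outside that rule and were chosen after their values were seen. The members and lists were chosen with earlier results of these data known. Promoters are RefSeq's (GRCh38.p14), and VIL1, HLA-E, TGM2 and BIRC5 were not matched. Replicate numbers were not taken as pairs in the main fit.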

Additional observations from a re-analysis of the deposited data

How the results depend on the processing

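With limma, 0 probe sets were called under every alternative but one: without a filter on dim probe sets 8 of 7018 were called, and the cause was not tested. A floor of 0 with 1 added gave 113 probe sets at least 2-fold higher on both 18 h arrays and 112 lower. A floor of 50 gave 12 and 15, a floor of 100 gave 5 and 6, and keeping probe sets above 100 on at least 2 arrays gave 11 and 15. The floor of 100 and the filter at 100 each left 342 probe sets higher and 528 lower without overlap, with fewer probe sets tested. Median centring gave 1052 higher and 921 lower. Leaving out 1 array, which leaves a lone array assumed to vary like the others, called 0 probe sets in each case. Counts free of overlap then ran from 1176 to 1536 higher and from 1563 to 1952 lower, and 2-fold counts from 118 to 228 higher and from 104 to 228 lower, since fewer arrays had to stay apart. Keeping the labelled groups apart called 0, with 632 at an unadjusted p under 0.05.

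With the replicate number as a block, limma called 0 probe sets, with 307 at an unadjusted p under 0.05. The correlation of deviations was -0.235, which with 2 pairs cannot decide whether the numbers pair the samples. With the numbers crossed, an alternative chosen after seeing the data, limma called 0 and 478 had an unadjusted p under 0.05.

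Of the 121 genes with values in the text, 107 did not reverse the sign of their log2 difference under any alternative that measured them. A raised floor or filter dropped some dim genes, and those runs were not counted. For PTPN5 and EGR4, counted among the 107, the difference fell to 0 without the array labelled untreated. The other 14 changed sign and all overlapped between the groups. Quantile normalization turned the log2 difference of CXCL10 (-0.0272), the log2 difference of TAP1 (-0.00169) and the log2 difference of IFIT3 (-0.0288). Median centring turned the log2 difference of IRF9 (0.0517) and the log2 difference of MX1 (0.0308). Over the 4 runs that left out 1 array the log2 difference ran from -0.19 to 0.64 for B2M, from -0.697 to 0.0688 for CD3D, from -0.17 to 0.49 for CIITA, from -0.17 to 1.90 for CYBA and from -0.0778 to 0.35 for EIF2AK2. It ran from -0.20 to 0.61 for GAPDH, from -0.0100 to 0.15 for IFIT1, from -0.12 to 0.28 for IFIT3, from -0.23 to 0.0314 for IRF1 and from -0.10 to 0.0764 for IRF9. For MX1 it ran from -0.23 to 0.16, for TAP1 from -0.12 to 0.48 and for WARS1 from -0.12 to 0.74. Intensities near the floor, such as those of CD74, CIITA and HLA-DRB1, give bounds or imprecise differences.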
